A study of Mus musculus with 4 samples.

Results

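The genes described here carry the bone morphogenetic protein (BMP) signal from the ligand to its targets in mouse embryonic stem (ES) cells. They are the ligand genes Bmp4 and Bmp2, the receptor genes Bmpr1a and Bmpr2, the signal transducer genes Smad1 and Smad5, the inhibitor gene Smad6 and the target genes Id1, Id2 and Id3. The members were all probe sets that the array platform's annotation assigns to 1 of these 10 gene symbols, 23 probe sets of the 45101 on the array. Of these, 17 passed the filter on low signal and were tested, at least 1 for each of the 10 genes, among 27022 probe sets tested in all.

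Gene expression was compared between ES cells with both, 1 or neither copy of BAF250 knocked out, on 1 Affymetrix array per sample. BAF250 proteins are ARID-domain subunits of BAF, a SWI/SNF-type complex that moves nucleosomes. The groups were homozygous knock-out lines ko1 and ko2 (1 array each), a heterozygous knock-out line (1 array) and wild type ES cells (1 array). The cells of all groups were grown on gelatin without feeder cells, in GMEM with 10% fetal bovine serum and leukocyte inhibitory factor, as the labels spell it, so that serum, itself a source of BMP activity, was shared by all groups. The labels used here do not say how the alleles were disrupted or whether ko1 and ko2 are separate clones, and the heterozygous and wild type groups had no replicate.

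BMP ligands bind a complex of type I receptors, such as the product of Bmpr1a, and type II receptors, such as the product of Bmpr2. The receptors phosphorylate SMAD1 and SMAD5, which enter the nucleus with SMAD4 and switch on targets, among them the Id genes. ID proteins have a helix-loop-helix domain without a DNA-binding region and hold E proteins, the partners of differentiation factors, in inactive pairs. In mouse ES cells BMP signalling and Id genes are known to support self-renewal together with leukaemia inhibitory factor in place of serum.

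Values are MAS5 signals scaled here to a common trimmed mean, and differences are on the scale of log2(scaled signal + 0.689). An array's background is the brightest of its 27 control probe sets for bacterial transcripts that are not spiked in: 5.89 in ko1, 4.58 in ko2, 8.12 in heterozygous cells and 5.52 in wild type cells. A probe set at or below it was not measured there, only bounded. The 3' to 5' signal ratio of the actin control, a sign of RNA quality, was 5.01 in ko1, 2.61 in ko2, 2.86 in heterozygous cells and 1.30 in wild type cells. As a check of the labels, the brighter Arid1a (BAF250a) probe set read 7.46 in ko1 and 4.28 in ko2, below background in ko2, against 59.1 in heterozygous cells and 79.5 in wild type cells. It fell by 3.66 ± 0.56 (SE) on the log2 scale in homozygous cells against wild type (limma adjusted p = 0.00571) and by 3.23 ± 0.56 against heterozygous (adjusted p = 0.0161). The other Arid1a probe set, at 18.4 in ko1 and 1.27 in ko2 against 28.3 in heterozygous cells and 31.3 in wild type cells, did not pass (adjusted p = 0.713 against wild type), and the only Arid1b probe set was below background on all 4 arrays. The labels do not say which of these genes was altered or where.

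All 8 markers of pluripotent cells fixed for this report, Pou5f1, Nanog, Sox2, Zfp42, Esrrb, Klf2, Utf1 and Fgf4, were above background on every array. Their summed signal was 112 and 170 in homozygous cells, 456 in heterozygous cells and 720 in wild type cells. The 10 markers of extraembryonic endoderm summed to 6316 and 4080 in homozygous cells, 116 in heterozygous cells and 106 in wild type cells, and all 10 were higher on both homozygous arrays than on the others, 5 of them past the test against wild type. Sparc, Col4a1 and Lama1 made up most of the homozygous sums, at 4117, 1195 and 709 in ko1. All 8 pluripotency markers were lower on both homozygous arrays, 3 of them past the test. Of all tested probe sets, 18.4% were higher and 20.3% lower on both homozygous arrays. Past the test against wild type, 0.329% of all rose and 0.0518% fell. The markers of fibroblasts (8), trophoblast (6), primitive streak and mesoderm (5 with a probe set) and neuroectoderm (6) summed to at most 64.1 on any array, and Pdgfrb, Ascl2, Eomes, Mixl1, Sox1 and Zic1 were at background on all of them. Fibroblast markers summed to 39.4 and 64.1 in homozygous cells, 22.5 in heterozygous cells and 23.3 in wild type cells. Trophoblast markers summed to 32.0 and 36.0, against 22.7 and 23.1. Neuroectoderm markers were lower in homozygous cells, at 28.0 and 24.2 against 44.2 and 50.9. None of the markers of these types passed the test against wild type. The part of these marker levels in the results below was not tested, and in whole cultures fewer cells of a type cannot be told apart from less RNA per cell.

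The promoters of Id2 and Id3, target genes of the pathway, are shown because Id3 was above background on every array while the probe sets of Id2 went different ways. The 250 bases before the RefSeq start are from assembly GRCm38.p6, 5′ to 3′ on the gene's strand, and capitals mark GGCGCC, the GC-rich site bound by BMP-activated SMAD proteins. The Id2 window lies at chr12:25096093-25096342 on the minus strand and the Id3 window at chr4:136143572-136143821 on the plus strand, both upstream of the annotated start.
Id2: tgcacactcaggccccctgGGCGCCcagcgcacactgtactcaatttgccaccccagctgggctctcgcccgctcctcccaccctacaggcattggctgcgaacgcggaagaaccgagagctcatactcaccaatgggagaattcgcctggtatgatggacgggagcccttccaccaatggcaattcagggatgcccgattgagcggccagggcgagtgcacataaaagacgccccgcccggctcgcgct
Id3: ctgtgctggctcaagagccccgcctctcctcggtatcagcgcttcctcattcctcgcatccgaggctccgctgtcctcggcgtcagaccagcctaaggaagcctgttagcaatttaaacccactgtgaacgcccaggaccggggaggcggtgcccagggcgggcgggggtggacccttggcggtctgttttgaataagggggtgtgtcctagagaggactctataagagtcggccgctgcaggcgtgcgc
The motifs searched on both strands were GGCGCC, the palindromic SMAD site GTCTAGAC, the E-box CANNTG and the TATA motif TATAAA. Id2 held 1 GGCGCC, with its first base at -231 from the start, and 1 CANNTG, while none of the 4 motifs was in the Id3 window. Of 32851 mouse promoter windows of the same length, 9.59% held GGCGCC, 0.167% GTCTAGAC, 66.2% CANNTG and 12.4% TATAAA. The promoter table held 10 windows for 8 of the members, Bmp4, Bmpr1a, Bmpr2, Smad1, Smad5, Smad6, Id2 and Id3. GGCGCC was in 4 of these windows, those of Bmpr1a, Bmpr2, Id2 and 1 of the Smad5 windows, and none held GTCTAGAC or TATAAA. The 10 windows were 60% to 78.8% G and C. No share was taken over other windows of like content, and a difference from the share of all windows was not tested. A match is a description of these letters and not a measured binding site.

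No member differed between the genotypes past the test. In homozygous against wild type, 0 of the 17 member probe sets tested had a limma adjusted p under 0.05, where 0.381% of all tested probe sets did, 89 higher and 14 lower in homozygous cells. In homozygous against heterozygous the count was 0 of 17, where 0.292% of all did. In heterozygous against wild type it was 0 of 17, where 0% of all did. At an unadjusted p under 0.05 the count was 0 of 17 in each of the 3 comparisons as well, where 5.74%, 6% and 2.74% of all tested probe sets did. The median log2 difference over the tested members was -0.06 for homozygous minus wild type, beside -0.10 over all tested probe sets, and 0.06 for homozygous minus heterozygous, beside -0.12. For heterozygous minus wild type it was -0.44, beside 0.01. Both homozygous arrays lay above both other arrays for 3 of the 17 probe sets, against 18.4% of all tested, and below both for 3 of 17, against 20.3%; these shares were close to the background. The smallest differences called among all probe sets were 2.23 against wild type and 2.50 against heterozygous on the log2 scale, so only large differences could pass with 4 arrays. Without scaling between arrays, the calls of homozygous against wild type split into 57 higher and 54 lower, with 0 of 17 members among them.

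**Figure D1:**
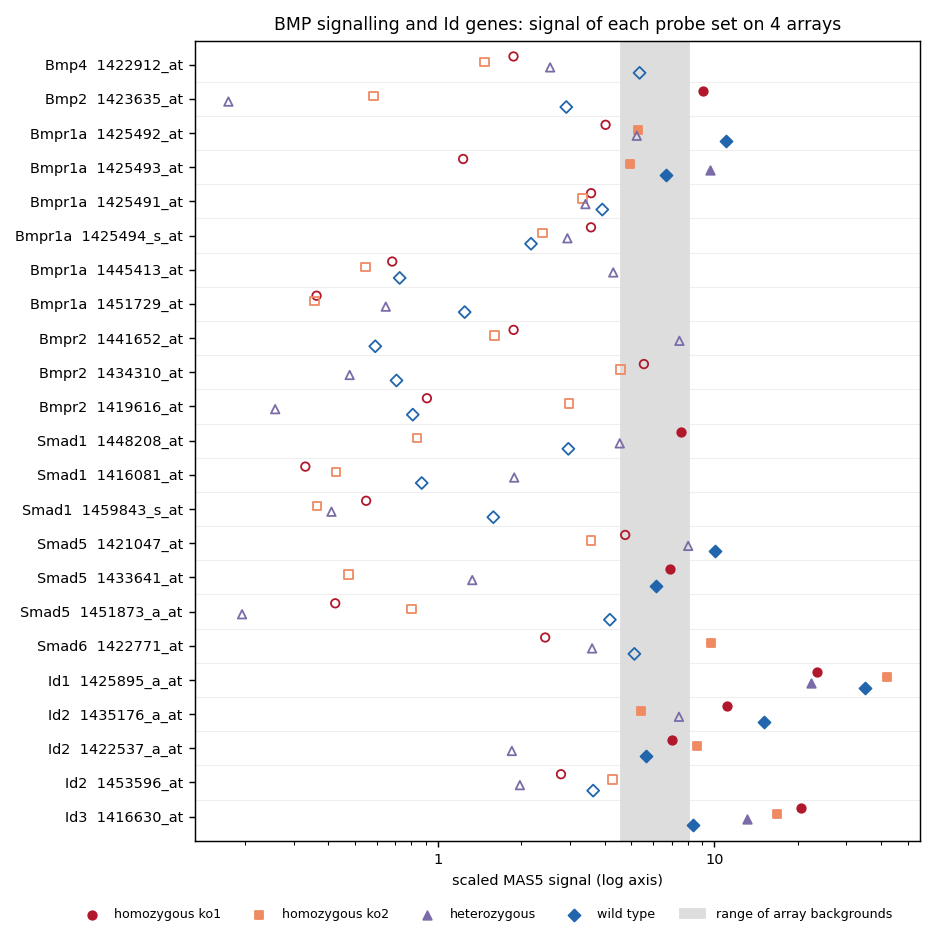
Scaled MAS5 signal (log axis) of the 23 probe sets of the 10 genes on the homozygous arrays ko1 and ko2, the heterozygous array and the wild type array. Filled points lie above the background of their own array, open points at or below it, and the grey band spans the 4 array backgrounds; only Id1 and Id3 are filled on all 4 arrays.

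**Figure D2:**
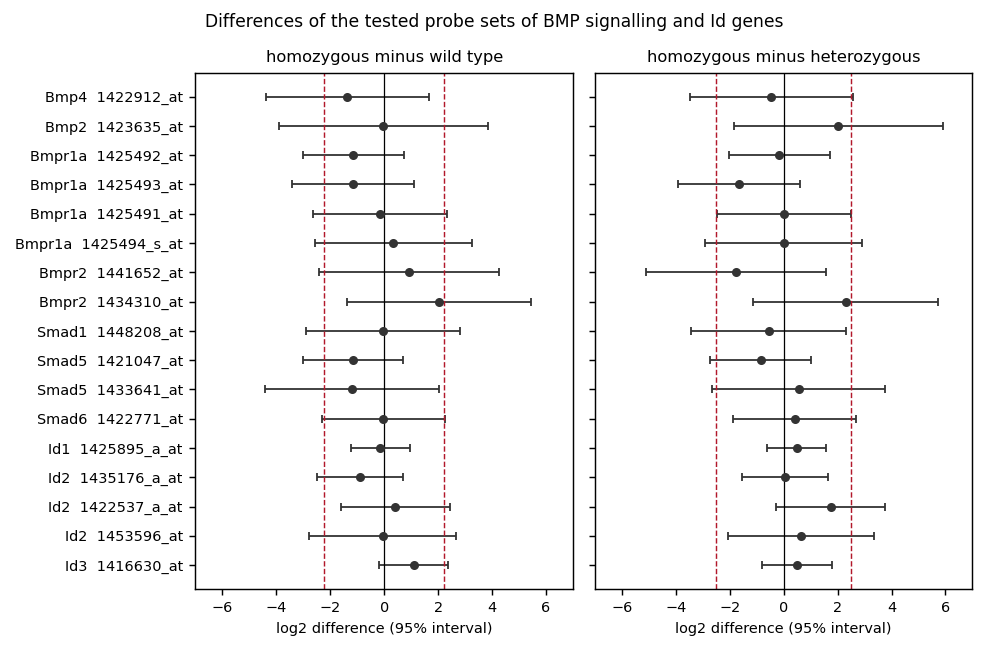
Log2 differences of the 17 tested probe sets with 95% intervals from the limma fit, for homozygous minus wild type and homozygous minus heterozygous. Dashed lines stand at the smallest difference called among all tested probe sets, 2.23 and 2.50, and every interval includes 0.

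Among the members, Id1 and Id3 were best seen on these arrays. Id1, an inhibitor of differentiation factors and a direct BMP target, gave 23.5 in ko1 and 42.3 in ko2, 22.4 in heterozygous cells and 35.1 in wild type cells. The ko1 and heterozygous values lay close together at the low end and ko2 and wild type at the high end, so the homozygous lines were further apart (ko1 minus ko2 of -0.83 on the log2 scale) than their mean was from either other genotype. Its log2 difference was -0.15 ± 0.52 (SE) for homozygous minus wild type, with a 95% interval of -1.25 to 0.95 (limma adjusted p = 0.977). Against heterozygous it was 0.48 ± 0.52, with an interval of -0.62 to 1.58 (adjusted p = 0.878). These were the narrowest intervals of any member.

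Id3, a related target with the same mode of action, read 20.6 in ko1 and 16.8 in ko2, 13.1 in heterozygous cells and 8.38 in wild type cells. Both homozygous arrays were above the heterozygous array, which was above wild type, and the homozygous values were close to each other. As deposited, before scaling, it read 19.4 and 14.0 in homozygous cells, 11.1 in heterozygous cells and 11.5 in wild type cells, so heterozygous was then the lower of the last pair. Homozygous minus wild type was 1.09 ± 0.61, with an interval of -0.20 to 2.38, and did not pass (adjusted p = 0.933; 0.616 to 0.946 over the alternative settings), and it was 0.50 with deposited signals. Homozygous minus heterozygous was 0.49 ± 0.61 (adjusted p = 0.887) and heterozygous minus wild type 0.60. The intervals of the differences between neighbouring genotypes include 0. The actin 3' to 5' ratio was also higher in the homozygous and heterozygous arrays than in wild type; its part in the order of the Id3 values was not tested.

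Id2 was measured by 3 probe sets that went different ways. Its brightest, 1435176_a_at, read 11.1 and 5.40 in homozygous cells, 7.44 in heterozygous cells, below that array's background, and 15.1 in wild type cells. There the homozygous lines stood at -0.89 ± 0.75 against wild type (adjusted p = 0.950), with ko2 the lowest array and ko1 between heterozygous and wild type. The second, 1422537_a_at, read 7.01 and 8.62 in homozygous cells, 1.85 in heterozygous cells and 5.65 in wild type cells, with both homozygous arrays on top. It stood at 0.42 ± 0.96 against wild type (adjusted p = 0.969) and at 1.74 ± 0.96 against heterozygous, with an interval of -0.29 to 3.77 (adjusted p = 0.858). The third, 1453596_at, was at or below background on all 4 arrays, between 1.98 and 4.28. The heterozygous array was below its background on all 3.

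Of the ligand genes, Bmp4, the BMP that sustains ES cells in culture and patterns the early embryo, was not above background anywhere. Its only probe set read 1.87 in ko1 and 1.47 in ko2, 2.54 in heterozygous cells and 5.36 in wild type cells, so wild type was the highest array but still under its background of 5.52. The fitted difference was -1.36 ± 1.42 for homozygous minus wild type (adjusted p = 0.953), and no fold is given because both sides were at background. Bmp2, a close relative that acts through the same receptors, read 9.07 in ko1, above background, and 0.583 in ko2, against 0.174 in heterozygous cells and 2.91 in wild type cells, all below. The homozygous lines thus lay on different sides of their backgrounds. Its fitted difference was -0.03 ± 1.83 against wild type and 2.03 ± 1.83 against heterozygous (adjusted p = 0.873), an average of arrays that did not resemble each other.

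The receptor genes were at the edge of detection. Bmpr1a, the type I receptor that ES cells use for BMP4, had 6 probe sets, of which 2 were above background on some array. On 1425492_at it read 4.03 and 5.28 in homozygous cells, 5.23 in heterozygous cells and 11.0 in wild type cells, a difference of -1.14 ± 0.88 for homozygous minus wild type (adjusted p = 0.950). On 1425493_at it read 1.23 and 4.93 in homozygous cells, 9.66 in heterozygous cells and 6.69 in wild type cells, -1.17 ± 1.06 against wild type and -1.66 ± 1.06 against heterozygous (adjusted p = 0.858). Both probe sets were lower in homozygous cells than in wild type, but the highest array was wild type on the first and heterozygous on the second. The other 4 probe sets lay at or below background on every array, with readings from 0.356 to 4.30, and their tested differences against wild type were -0.16 and 0.34. Bmpr2, the type II receptor, was at or below background on all its 3 probe sets and all arrays. On 1434310_at both homozygous arrays read higher, 5.55 and 4.57 against 0.478 in heterozygous cells and 0.707 in wild type cells, yet each lay just under its background of 5.89 and 4.58. The fitted 2.04 ± 1.61 against wild type and 2.29 ± 1.61 against heterozygous did not pass (adjusted p = 0.950 and 0.858). On 1441652_at the heterozygous array read 7.46, also under its background, against 1.87 and 1.60 in homozygous cells and 0.592 in wild type.

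The SMAD genes gave no steady picture across probe sets. Smad1, a transducer phosphorylated by BMP receptors, was above background on 1 array of 1 probe set, 1448208_at, at 7.55 in ko1 and 0.839 in ko2, 4.54 in heterozygous cells and 2.96 in wild type cells. That difference was -0.04 ± 1.34 against wild type (adjusted p = 0.997), and the other 2 Smad1 probe sets read between 0.331 and 1.88 and were not tested. Smad5, which acts beside Smad1, read 4.75 and 3.57 in homozygous cells, 8.03 in heterozygous cells and 10.0 in wild type cells on 1421047_at, its brightest probe set. Both homozygous arrays were lowest there, and wild type alone was above background; the difference of -1.15 ± 0.87 against wild type did not pass (adjusted p = 0.950). On 1433641_at the homozygous lines disagreed, with 6.88 in ko1 and 0.473 in ko2, against 1.33 in heterozygous cells and 6.14 in wild type cells. The third Smad5 probe set read at most 4.18 and was not tested. Smad6, an inhibitory SMAD that is itself switched on by BMP signalling, read 2.44 in ko1 and 9.69 in ko2, 3.61 in heterozygous cells and 5.13 in wild type cells. It was above background in ko2 alone, and its difference was -0.03 ± 1.08 against wild type (adjusted p = 0.997) and 0.41 ± 1.08 against heterozygous.

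Over the 23 member probe sets, 2 were above background on all 4 arrays (Id1 and Id3), 9 on 1 to 3 arrays and 12 on none. By array, 7 were above background in ko1, 7 in ko2, 3 in heterozygous cells and 8 in wild type cells, and the heterozygous array had the highest background. Since no member passed the test, no gene was sought for a pattern like theirs.

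The rest of the pathway was read from a list of 59 genes in 7 role classes, of which 56 had a probe set of their own and 46 had at least 1 probe set tested (79 probe sets of 125). In homozygous against wild type 1 of the 79 rose and none fell, where 0.329% of all tested probe sets rose and 0.0518% fell. In homozygous against heterozygous 2 rose and none fell, where 0.270% of all rose and 0.0222% fell. At an unadjusted p under 0.05, 12 of the 79 differed against wild type and 11 against heterozygous, where 5.74% and 6% of all tested probe sets did. Of the 12, 8 were of extracellular antagonists and modulators, and all tested probe sets of Fst, Fstl1 and Dusp9 were among them. They are thus not separate genes, and the list was chosen with earlier results of these data known. The list's median was -0.22 against wild type and -0.06 against heterozygous. Both homozygous arrays lay above both others for 17 of the 79 probe sets and below both for 22, where 18.4% and 20.3% of all tested probe sets did. The risen probe sets were 1 of Fst in both comparisons and 1 of Dusp9 against heterozygous alone. Both passed the filter on mean signal only through the homozygous arrays. Fst encodes follistatin, a secreted antagonist of activin that also binds BMPs. Dusp9 is a MAP kinase phosphatase gene that BMP4 is known to induce in mouse ES cells.

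**Figure D3:**
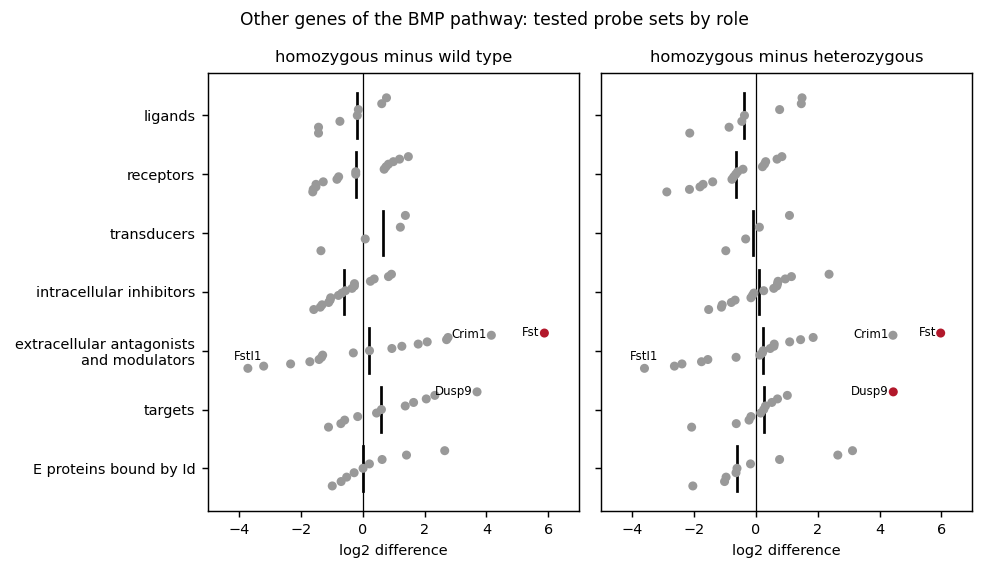
Log2 differences of the 79 tested probe sets of the other BMP pathway genes by role, for homozygous minus wild type and homozygous minus heterozygous. Each point is a probe set, red where limma's adjusted p was under 0.05, short black lines are class medians, and names stand beside differences over 3.4 in size; most points lie within 3 of 0.

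Among extracellular antagonists and modulators (17 probe sets tested of 12 genes, median 0.22 against wild type), Fst stood furthest out. On 1421365_at it read 93.7 in ko1 and 61.7 in ko2, against 0.532 in heterozygous cells and 0.620 in wild type cells, both below background. It rose at least 13.8-fold over wild type (adjusted p = 0.000838) and at least 9.37-fold over heterozygous (adjusted p = 0.000992). This probe set passed the filter on a mean signal above 2.57, and the background filter, only through the homozygous arrays. Without ko1, whose actin ratio was the highest, and with wild type and heterozygous as 1 group, the difference was 5.63 and the call ended (adjusted p = 0.102; 4.45e-11 to 0.826 over all alternatives). On its other probe set both homozygous arrays were again on top with a smaller gap, with 13.5 and 21.6 in homozygous cells, 4.23 in heterozygous cells and 4.43 in wild type cells (1.80 ± 0.74 against wild type, adjusted p = 0.760). The summed endoderm markers given above were higher in the same arrays; their part in the Fst result was not tested.

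Crim1, whose product is a membrane protein that binds BMPs, read 21.3 and 23.4 in homozygous cells against 0.378 in heterozygous cells and 0.600 in wild type cells. That is at least 4.04-fold higher than wild type, but the test was not passed (fitted 4.16 ± 1.02, adjusted p = 0.142), nor against heterozygous (adjusted p = 0.117). It was passed with wild type and heterozygous as 1 group (adjusted p = 0.00776; up to 0.826 over all alternatives) and, against heterozygous, with median centring (adjusted p = 0.0389; 0.0222 to 0.708 over all alternatives). Crim1 too entered the main and background filters only through the homozygous arrays. Its second probe set read 2.01 and 5.48 in homozygous cells, 0.238 in heterozygous cells and 1.28 in wild type cells. Both homozygous arrays were on top there, but only ko2 was above background and the probe set was not tested. Fstl1, a secreted follistatin-like protein, went the other way: 1448259_at read 0.787 and 0.571 in homozygous cells, against 15.8 in heterozygous cells and 17.2 in wild type cells. The second Fstl1 probe set read 1.07 and 1.86 in homozygous cells, 6.46 in heterozygous cells and 18.8 in wild type cells. Both were lower in homozygous cells than in wild type, by at least 3.30-fold and at least 3.61-fold, without passing (adjusted p = 0.325 and 0.484). With wild type and heterozygous as 1 group, 1448259_at passed at -3.65 (adjusted p = 0.0429; up to 0.826 over all alternatives). That probe set entered the filters only through the heterozygous and wild type arrays.

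Among the targets (11 probe sets of 7 genes tested, median 0.61 against wild type), Dusp9 had 3 probe sets, and 1 passed in 1 comparison. On 1433844_a_at it read 38.2 and 22.1 in homozygous cells, against 0.680 in heterozygous cells and 1.61 in wild type cells, both below background. It rose at least 3.58-fold over heterozygous (adjusted p = 0.0386), and the call ended in 4 of 9 alternatives (adjusted p = 0.000531 to 0.708). This probe set passed the filter on a mean signal above 2.57 only through the homozygous arrays, and without the filter the call ended. Against wild type it was at least 5.26-fold higher and did not pass (adjusted p = 0.108). The other probe sets placed the heterozygous array otherwise. On 1454737_at the readings were 36.5 and 27.7 in homozygous cells, 15.3 in heterozygous cells and 5.75 in wild type cells. On 1433845_x_at they were 49.9 and 22.8 in homozygous cells, 28.2 in heterozygous cells, above ko2, and 12.6 in wild type cells. Against heterozygous, 1454737_at stood at 1.02 ± 0.56 and 1433845_x_at at 0.26 ± 0.56 (limma adjusted p = 0.858 and 0.925). All 3 probe sets were higher in ko1 and in ko2 than in wild type cells, while the position of heterozygous rested on the probe set. Of the other targets with the largest differences, the homeobox gene Dlx5 stood at 2.06 ± 1.13 and Hey1, a transcriptional repressor also driven by Notch, at -1.10 ± 1.13, neither past the test. Dlx5 was above background in ko2 alone and Hey1 in heterozygous cells alone.

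**Figure D4:**
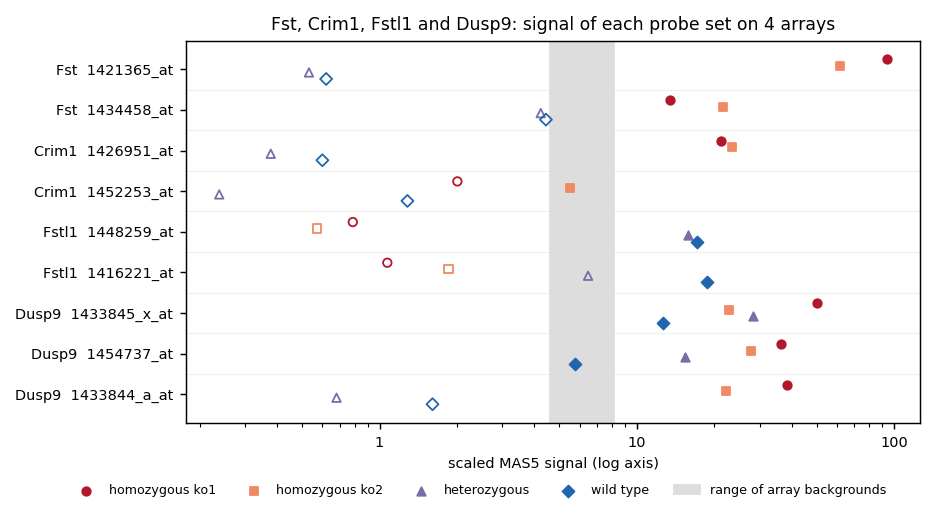
Scaled MAS5 signal (log axis) of all probe sets of Fst, Crim1, Fstl1 and Dusp9 on the homozygous arrays ko1 and ko2, the heterozygous array and the wild type array. Filled points lie above the background of their own array and open points at or below it; Fst and Crim1 are higher and Fstl1 lower in both homozygous lines, and the 3 Dusp9 probe sets place heterozygous differently.

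In the other classes no probe set passed in any comparison. Of the ligands (7 probe sets tested), Gdf2 stood at -1.43 ± 0.89 for homozygous minus wild type, Bmp7 at -1.43 ± 0.95 and Bmp8b at 0.77 ± 1.76. Gdf2 was above background in wild type alone and Bmp8b in ko1 alone. Of the receptors and co-receptors (15), the type I receptor gene Bmpr1b stood at -1.61 ± 1.38, and the co-receptor genes Rgmb at -1.51 ± 1.46 and Hjv at -1.27 ± 1.26. These Bmpr1b and Rgmb probe sets were above background on no array, and that of Hjv in wild type alone. The other tested probe sets of Bmpr1b and Rgmb went the other way, at 0.83 and 1.48. Of the transducers (4), Smad9, the third BMP-responsive SMAD, stood at -1.35 ± 1.19 and Smad4, the partner of all receptor-activated SMADs, at 1.22 ± 0.70. Of the intracellular inhibitors (16), the decoy receptor gene Bambi, above background in wild type alone, stood at -1.58 ± 1.29. The genes Ski and Skil, whose products repress SMAD complexes, stood at -1.37 ± 0.70 and -1.10 ± 0.62. Their other tested probe sets stood at -0.27 for Ski and, in the other direction, at 0.37 for Skil. The median of that class was -0.61 against wild type and 0.10 against heterozygous. For the genes of the E proteins that ID proteins bind (9), Tcf12 stood at 2.65 ± 1.13, Tcf3 at -0.70 ± 0.60 and Tcf4 at 0.63 ± 1.32 on their brightest probe sets tested. That of Tcf12 was above background in ko2 alone, and its other tested probe set stood at 0.013. That of Tcf4 was above background in ko1 alone, and its other tested probe sets ranged from -0.98 to 1.42. The other tested probe set of Tcf3 went the other way, at 0.22.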

How the data were processed

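Biotin-labelled RNA of 4 samples (8 microgram of total RNA each) was hybridised to 1 array each, per the labels' protocols. The authors deposited signal intensity per probe set on a linear scale, made with MAS5 per the submitters' processing notes; no source used here names its version or scaling target. The trimmed means of the deposited values (2% left out at each end) differed, 4.89 for ko1, 4.33 for ko2, 4.43 for heterozygous and 7.12 for wild type. Each array was therefore scaled here to their mean (factors 1.06, 1.20, 1.17 and 0.729), so that differences and p-values share a scale; without this the median probe set stood at -0.74 for homozygous minus wild type, against -0.10 with it.

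Signals were taken as log2(scaled signal + 0.689), the pseudocount being the 20th percentile of all scaled values; differences of dim probe sets are understated on that scale. The 27022 probe sets with a mean scaled signal above 2.57, the 40th percentile, were fitted with limma 3.58.1 in R 4.3.3 (1 mean per genotype, intensity trend, Benjamini-Hochberg adjustment over all of them, threshold 0.05). Residual degrees of freedom numbered 1, from ko1 against ko2, and 15.3 in total with the information shared across probe sets; the lone arrays were assumed to vary likewise. The p-values of this fit thus rest on the spread between ko1 and ko2, moderated across probe sets. The labels name no separate cultures, so that spread may be technical. The fit was tested on simulated data with normal noise at the fitted spread. False calls were limited there only for probe sets with a mean above background, so the test does not cover dim ones. No depth applies to arrays; their number limits the precision. Intervals are 95% intervals of the fit. A fold given as at least a number sets the mean log2 signal of the brighter side over the background of the dimmer side.

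Symbols came from the platform's annotation: 34958 probe sets had 1 symbol, 932 several and 9211 none, and 34754 matched the RefSeq gene table of GRCm38.p6 by gene ID with 0 symbols updated. The members and lists were chosen with earlier results of these data known. Named genes were all members, pathway genes past the test and up to 3 per role class with the largest difference from wild type. Alternatives were other scalings (none, median centring, quantile), pseudocounts, filters, 1 or averaged probe sets per gene, no intensity trend, 2 groups and left-out lines.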

Additional observations from a re-analysis of the deposited data

How the results depend on the processing

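Across the 33 combinations of a setting and a comparison, 0 member probe sets were called, at most 1 had an unadjusted p under 0.05, and the lowest adjusted p of any member was 0.514. Of the members' values under alternatives with all arrays, 307 kept their direction and 18 turned; with ko1 or ko2 left out, 55 kept it and 13 turned, and with that and wild type and heterozygous as 1 group, 23 kept it and 11 turned. A value averaged per gene was counted there against each tested probe set of that gene. The turned values of members and of other named genes are given below, all of differences past no test. For homozygous minus wild type, leaving out ko1 gave Smad6 0.83, Id1 0.26, Id2 (1453596_at) 0.20 and Bmp8b -0.51, and leaving out ko2 gave Bmp2 1.44, Smad1 1.18 and Smad5 (1433641_at) 0.15. For homozygous minus heterozygous, leaving out ko1 gave Bmpr1a 0.013 (1425492_at) and -0.027 (1425491_at), Smad5 (1433641_at) -0.80, Id2 (1435176_a_at) -0.42, Dusp9 (1433845_x_at) -0.30 and Bmp8b -0.52. There, leaving out ko2 gave Bmpr1a (1425494_s_at) 0.23, Smad1 0.66, Smad6 -0.46 and Bambi -0.0026. The next values are again for homozygous minus wild type. With the larger pseudocount, Bmp2 stood at 0.12, Smad1 at 0.064 and Smad6 at 0.011. With deposited signals, Bmpr1a (1425494_s_at) and Id2 (1422537_a_at) both stood at -0.15. With probe sets averaged per gene, they stood at -0.52 and -0.18. With wild type and heterozygous as 1 group, Bmp2 stood at 1.00, Bmpr2 (1441652_at) at -0.42, Smad6 at 0.19, Id1 at 0.17 and Id2 (1453596_at) at 0.29. In that fit without ko1, Bmpr1a (1425494_s_at) stood at -0.066, Bmpr2 at -0.50, Smad6 at 1.05, Id1 at 0.58, Id2 (1453596_at) at 0.55 and Bmp8b at -0.52. In that fit without ko2, Bmp2 stood at 2.47, Bmpr2 at -0.33, Smad1 at 0.92, Smad5 (1433641_at) at 1.03, Id2 (1435176_a_at) at 0.063 and Id2 (1453596_at) at 0.032. For homozygous minus heterozygous, Bmpr1a (1425494_s_at) turned to 0.046 with deposited signals, 0.030 with median centring, 0.082 with quantile normalization and 0.0022 with the larger pseudocount. With averaged probe sets, Bmpr1a (1425491_at) stood at -0.68, Smad5 (1421047_at) at 0.080, Tcf3 at 0.54, Tcf4 at -0.21 and Skil at 0.64.

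The number of probe sets called among all tested varied more. For homozygous against wild type (103) it was 48 with the smaller pseudocount, 26 without a filter, 302 among probe sets above background on at least 1 array, 59 with the brightest probe set per gene and 16 with averaged probe sets. It was 240 with wild type and heterozygous as 1 group, and 38 to 214 in that fit without ko1 or ko2, an alternative chosen after seeing the data. For homozygous against heterozygous (79) it was 140 with median centring, 142 with quantile normalization, 39, 22, 250 and 12 under the smaller pseudocount, no filter, the background filter and averaging. Without the intensity trend limma called 0 in both (1540 and 1865 at an unadjusted p under 0.05). For heterozygous against wild type (0) the background filter gave 16 and the other settings 0, with 425 to 1686 at an unadjusted p under 0.05. The cause was not tested.

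The call of Fst ended with averaged probe sets (3.83 against wild type, adjusted p = 0.0869; 3.91 against heterozygous, adjusted p = 0.0860) and without the intensity trend. That of Dusp9 against heterozygous ended with the smaller pseudocount (adjusted p = 0.106), no filter (0.244), averaging (0.475) and no trend (0.708). Against wild type Dusp9 passed with median centring (0.0453), quantile normalization (just under the threshold), the background filter (0.0102), which this probe set enters only through the homozygous arrays, and 1 group for wild type and heterozygous (0.00248). No paired analysis was possible because heterozygous and wild type have 1 array each and share no second replicate number with the homozygous lines. With 4 arrays and 12 of 23 member probe sets at background throughout, only large differences could be called.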

Other observations

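Bmp1, the gene of a metalloproteinase that cleaves procollagen and the BMP antagonist chordin, read 12.6 in ko1 and 17.4 in ko2, 6.58 in heterozygous cells and 1.60 in wild type cells on its brightest probe set, the last pair at background. Homozygous minus wild type was 2.76 (adjusted p = 0.329), and Bmp1 was picked after its values were seen. This probe set entered the background filter only through the homozygous arrays. The other Bmp1 probe sets did not repeat the pattern and were not tested. On 1427458_at the readings were 0.601 in ko1 and 6.43 in ko2, against 0.880 in heterozygous cells and 0.992 in wild type cells. On 1427457_a_at they were 0.604 and 2.98, against 0.178 and 1.87.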
